A study of Mus musculus with 6 samples.

Results

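The 10 genes described here handle iron in the cell: Tfrc, Steap3 and Slc11a2 bring it in, Fth1 and Ftl1 store it, Ncoa4 hands the store over for breakdown, Slc40a1 exports it, and Aco1, Ireb2 and Fbxl5 belong to the system that senses it and sets the output of the others. They were taken by symbol from a table of estimated counts for 14883 genes in B16F10luc2 cells, a line of the B16F10 mouse melanoma, and all 10 were present and passed the filter on low counts that left 12377 genes to test. In 3 samples the cells had been stretched cyclically for 24 h on elastic plates, with 15% equibiaxial elongation at 15 cycles per minute and equal phases of stretch and relaxation. In 3 static samples they were grown in plates of the same type without stretch. The labels give no culture time for the static samples. Both groups were the same line, in DMEM with 10% serum. A single line was studied, and no label says that the replicates were separate cultures, so the p-values below capture only how much these samples vary, and that variation may be technical.

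Cells take up iron mostly as iron-loaded transferrin, which binds transferrin receptor 1 and is carried into acidic endosomes, where the iron is released, reduced and moved to the cytosol. Iron that is not used at once is packed into ferritin, a hollow shell of heavy and light chains. When iron is scarce, iron regulatory proteins bind short RNA hairpins, the iron-responsive elements (IREs), at the start of ferritin and ferroportin mRNAs, where they hold back translation, and at the end of transferrin receptor mRNA, where they protect it from decay. Melanocytes also need metals for the enzymes of pigment synthesis, and the B16 line is of that lineage. Protein levels, iron itself and translation were not measured, and the values below are mRNA levels.

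The elements that iron regulatory proteins bind were searched for in the untranslated regions (UTRs) of the members, since they set which mRNAs share this control. The motif searched was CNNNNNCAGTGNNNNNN on the mRNA strand, in which the 5 bases before the CAGTGN loop pair with the 5 bases after it and the last base of the loop is not G. It was found at 7 sites in 4 of the 10 members, in GENCODE M21 transcripts on GRCm38. Of 20323 genes with a consensus coding sequence, 0.064% had it in the 5′ UTR and 0.408% in the 3′ UTR. The 7 sites follow, 27 bases each, with the loop in capitals.
Tfrc site 1, 3′ UTR, chr16:32631220-32631246, plus strand: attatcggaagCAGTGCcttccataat
Tfrc site 2, 3′ UTR, chr16:32631599-32631625, plus strand: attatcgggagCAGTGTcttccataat
Tfrc site 3, 3′ UTR, chr16:32631664-32631690, plus strand: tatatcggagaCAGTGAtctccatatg
Tfrc site 4, 3′ UTR, chr16:32631711-32631737, plus strand: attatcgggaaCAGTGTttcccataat
Fth1, 5′ UTR, chr19:9982733-9982759, plus strand: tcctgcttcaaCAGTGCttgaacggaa
Ftl1, 5′ UTR, chr7:45459780-45459806, minus strand: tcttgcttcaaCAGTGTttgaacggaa
Slc40a1, 5′ UTR, chr1:45925466-45925492, minus strand: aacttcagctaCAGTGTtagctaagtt
In the whole search a single gene had 2 or more such sites in its 3′ UTR, and it was Tfrc, with 4. An element with a mismatch between the 5 bases before the loop and the 5 after it would be missed. The 4 sites of Tfrc are thus matches to the pattern and need not be all its elements. The sites of the ferritin chains differed at 2 of 27 bases, written from Fth1 to Ftl1 and counted from the 5′ end as printed: C3T in the lower stem and C17T in the last base of the loop. The search found no match in the other 6 members, Slc11a2 included, which says only that these letters, paired in this way, are not in the transcripts searched.

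Library totals ran from 20494344 to 36351400 counts in stretched and from 19469286 to 30042222 in static cells. Counts of the 10 members ranged from 654 for Fbxl5 to 310661 for Ftl1 in a library, and levels are given on the counts-per-million (CPM) scale of TMM-scaled library sizes. The melanocyte markers Mitf, Sox10, Pmel, Tyr, Tyrp1, Dct and Mlana were all present, with a summed level of 19863 to 20454 CPM in stretched and 22410 to 24791 CPM in static cells. They did not move together: Tyrp1, Pmel and Dct, which fell, had log2 fold changes of -0.31, -0.29 and -0.09, Mitf, which rose, had 0.37, and Sox10, Tyr and Mlana did not pass. The part of these differences in the results below was not tested. Macrophage, keratinocyte and fibroblast markers summed to at most 1.37, 0.770 and 25.2 CPM in stretched and 1.49, 0.537 and 30.4 CPM in static cells. Ptprc, Adgre1, Csf1r and Cd14 of the first of these lists and Krt5, Krt14, Krt1 and Krt10 of the second were not among the deposited genes. Lum of the third was not among them either. Every deposited gene had at least 10 counts in total, so a gene left out need not have lacked counts. The sums thus rest on 2 of 6 macrophage, 1 of 5 keratinocyte and 6 of 7 fibroblast markers. In bulk RNA fewer cells that express a gene and less of its RNA per cell cannot be told apart. Groups were compared by edgeR's quasi-likelihood test, with a Benjamini-Hochberg adjusted p under 0.05 over all 12377 tested genes as the call.

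Under stretch the mRNA of the ferritin heavy chain and of the exporter ferroportin fell by about the same proportion, while that of the iron regulatory protein IRP2 rose. Fth1 had a level 1.49-fold lower and Slc40a1 1.48-fold lower in stretched than in static cells, and Ireb2 was 1.21-fold higher. The mRNAs of the ferritin light chain, the receptor, the reductase, the importer and the iron sensor IRP1 fell by 1.08-fold to 1.12-fold. That of Fbxl5 rose 1.09-fold. Thus 7 members fell, 2 rose and 1, Ncoa4, did not pass. Of all tested genes 50.9% were called, 25.9% lower and 24.9% higher, so a call by itself was common in these libraries. With TMM 49.0% of called genes were higher, against 63.2% with scaling by library size alone, where the median of all tested genes was 0.06. The median log2 fold change of the 10 members was -0.13, against 0.00 for all tested genes, whose interquartile range was -0.17 to 0.18. The CPM values of the groups did not overlap for 9 of the 10 members, and for 58.5% of all tested genes.

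**Figure D1:**
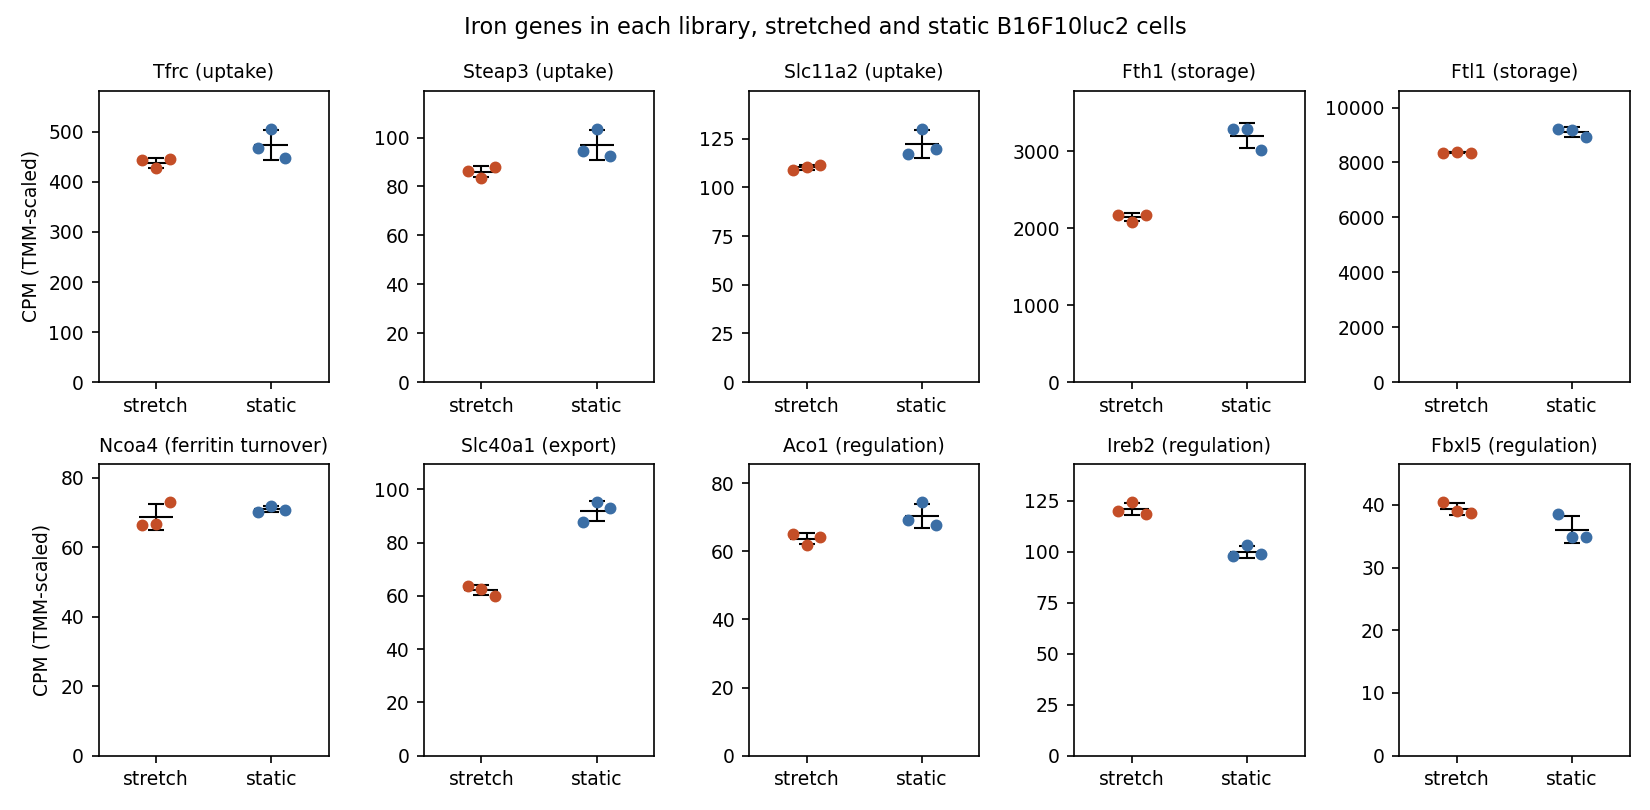
Level of each iron gene (CPM, TMM-scaled, linear axes from 0) in the 3 stretched (left) and 3 static (right) libraries; points are libraries, the bar is the mean and the whiskers 1 SD. Fth1 and Slc40a1 stand clearly lower and Ireb2 higher in stretched cells, while Ncoa4 overlaps between groups.

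Tfrc (Entrez Gene 22042; chromosome 16, 32608896 to 32632794 in GRCm38.p6) encodes transferrin receptor 1, the main door for iron in dividing cells. Its level was 443, 427 and 446 CPM in stretched replicates 1, 2 and 3, against 468, 507 and 447 CPM in static replicates 1, 2 and 3. The groups did not overlap, but the lowest static library lay barely above the highest stretched library, and static replicate 2 was the highest of the 6. The mean was 439 ± 10.0 CPM in stretched and 474 ± 30.3 CPM in static cells (SD, n = 3 each), a log2 fold change of -0.11 (SE 0.043, 95% interval -0.20 to -0.02, adjusted p = 0.0456). The call was near the threshold: it was lost without static replicate 1 (-0.12, adjusted p = 0.0849), without static replicate 2 (-0.06, 0.151), and without stretched replicate 1 (-0.12, 0.0964), 2 (-0.09, 0.175) or 3 (-0.12, 0.0742). It was also lost with the replicate number as a block (adjusted p = 0.0771) and with library size scaling (-0.05, 0.300), whereas an offset for GC content and length moved the value to -0.23 (adjusted p = 6.73e-04). All 4 hairpins printed above lie in the 3′ UTR of this mRNA.

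Steap3 (Entrez Gene 68428; chromosome 1, 120226414 to 120271081) encodes the endosomal ferrireductase that reduces the iron released from transferrin. It stood at 86.4, 83.5 and 88.0 CPM in the stretched libraries, against 94.7, 104 and 92.4 CPM in the static libraries. Every stretched library was below every static library, and static replicate 2 was again the highest. The log2 fold change was -0.17 (SE 0.045, adjusted p = 0.00560), a fall of 11.1%. Scaling by library size moved it to -0.11 (adjusted p = 0.0424), still called. Correcting for GC content and length gave -0.11 and no call (adjusted p = 0.0634).

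Slc11a2 (Entrez Gene 18174; chromosome 15, 100387898 to 100424209) encodes DMT1, which carries the reduced iron from the endosome to the cytosol. Its values were 109, 111 and 111 CPM in stretched cells, against 117, 130.2 and 119.6 CPM in static cells. The stretched libraries were nearly equal and all below the static libraries. Its log2 fold change of -0.15 (SE 0.042) had an adjusted p of 0.00965. Scaling by library size took the call away (-0.09, adjusted p = 0.0853), as did a fit without stretched replicate 1 (-0.14, adjusted p = 0.0501). The gene has transcripts with different 3′ ends, Slc11a2-201 with a 3′ UTR of 1186 bases and Slc11a2-205 with one of 2650 bases, and a count per gene cannot tell them apart.

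Fth1 (Entrez Gene 14319; chromosome 19, 9980600 to 9985111) encodes the ferritin heavy chain, which holds the ferroxidase site that turns ferrous into ferric iron for storage. Its level was 2174, 2086 and 2175 CPM in stretched replicates 1, 2 and 3, against 3295, 3295 and 3011 CPM in static replicates 1, 2 and 3. The highest stretched library was far below the lowest static library, and within each group the libraries lay close together. The mean was 2145 ± 51.0 CPM in stretched and 3200.1 ± 164 CPM in static cells (SD, n = 3 each). The log2 fold change was -0.58 (SE 0.040, 95% interval -0.66 to -0.49, adjusted p = 3.04e-08), and 4.25% of tested genes fell by as much or more. It also passed against a null of 1.2-fold in edgeR's glmTreat (adjusted p = 5.09e-06), as did 12.9% of all tested genes, 7.38% lower and 5.49% higher.

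Ftl1 (Entrez Gene 14325; chromosome 7, 45457944 to 45459886) encodes the ferritin light chain, which lacks the ferroxidase site and favours the growth of the iron core inside the shell. Its values were 8349.9, 8382 and 8354 CPM in stretched cells, against 9234, 9173 and 8912 CPM in static cells. The stretched libraries were almost identical, with a coefficient of variation of 0.207%, and the groups did not overlap. Stretched over static, this was -0.12 on the log2 scale (SE 0.033, 95% interval -0.19 to -0.05, adjusted p = 0.00557). Scaling by library size moved it to -0.06, still called (adjusted p = 0.0404), and it was not called once GC content and length were corrected for (-0.06, adjusted p = 0.214). Ferritin genes have many pseudogene copies in the mouse genome and how reads shared with such copies were assigned could not be followed.

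The mRNAs of the ferritin chains thus did not fall by the same amount. Per kilobase of transcript, Fth1 mRNA amounted to 0.271, 0.259 and 0.271 of Ftl1 mRNA in stretched replicates 1, 2 and 3, against 0.372, 0.374 and 0.352 in static replicates 1, 2 and 3. All stretched libraries had a lower ratio than all static libraries. The mean ratio was 0.267 ± 0.00689 in stretched and 0.366 ± 0.0122 in static cells (SD, n = 3 each), or 1.37-fold lower under stretch. In an exact two-sided permutation test over the samples p was 0.1, the smallest that 3 against 3 samples allow. A ratio within a library does not depend on how libraries are scaled, and the log2 difference of -0.45 stayed between -0.48 and -0.43 with each library left out in turn. Both mRNAs are short, of 0.929 kb for Fth1 and 0.968 kb for Ftl1, and both carry the 5′ hairpin printed above.

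Ncoa4 (Entrez Gene 27057; chromosome 14, 32159879 to 32179855) encodes the receptor that binds the ferritin heavy chain and delivers ferritin to the lysosome, where the iron is set free. It had 66.3, 66.6 and 72.9 CPM in stretched cells, against 70.0, 71.8 and 70.8 CPM in static cells. Stretched replicate 3 was the highest of the 6 libraries and the other stretched libraries were the lowest, so the groups overlapped. Ncoa4 had a log2 fold change of -0.05 (SE 0.043, 95% interval -0.14 to 0.04, adjusted p = 0.366), an interval that leaves room for a fall of the size seen in Ftl1. The value was -0.02, -0.03 and -0.09 without stretched replicates 1, 2 and 3 in turn, with no call in any of these fits (adjusted p of 0.759, 0.652 and 0.0941). With library size scaling the sign changed, to 0.01, and after correction for GC content and length it passed, at -0.11 (adjusted p = 0.0481).

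Slc40a1 (Entrez Gene 53945; chromosome 1, 45908070 to 45926532) encodes ferroportin, the only known iron exporter of mammalian cells. Its level was 63.8, 62.5 and 60.04 CPM in stretched replicates 1, 2 and 3, against 87.6, 95.3 and 92.8 CPM in static replicates 1, 2 and 3. The groups were far apart, with the highest stretched library well below the lowest static library. The mean was 62.1 ± 1.90 CPM in stretched and 91.9 ± 3.89 CPM in static cells (SD, n = 3 each). The log2 fold change was -0.56 (SE 0.042, 95% interval -0.65 to -0.47, adjusted p = 6.91e-08), and 4.54% of tested genes fell by as much or more. With Fth1 it was the other member to pass against 1.2-fold (adjusted p = 1.38e-05). The fold change was nearly that of Fth1 although the level of Fth1 per kilobase was far higher, at 2309 against 18.4 CPM per kb in stretched and 3445 against 27.3 CPM per kb in static cells.

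**Figure D2:**
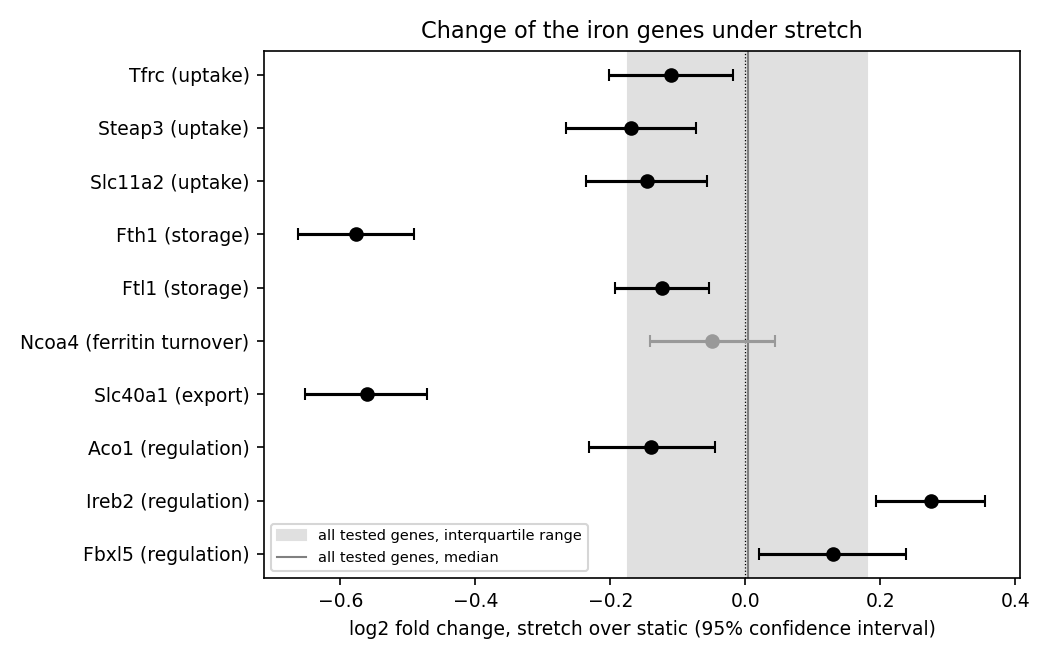
Log2 fold change of each iron gene, stretched over static cells, with its 95% confidence interval from edgeR; black points passed an adjusted p of 0.05 and the grey point (Ncoa4) did not. Fth1 and Slc40a1 lie left of the grey band, the interquartile range of all tested genes (-0.17 to 0.18), Ireb2 lies right of it, and the other members lie inside it.

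The mRNAs of the iron regulatory proteins moved in opposite directions. Aco1 (Entrez Gene 11428; chromosome 4, 40143265 to 40199009) encodes IRP1, which is the cytosolic aconitase when it holds an iron-sulfur cluster and binds RNA when it does not. It had 65.1, 61.8 and 64.3 CPM in stretched cells, against 69.0, 74.4 and 67.8 CPM in static cells. The groups did not overlap, and the gap between them was narrow. On the log2 scale the difference was -0.14 (SE 0.044, adjusted p = 0.0159). No call was made without stretched replicate 2 (-0.12, adjusted p = 0.0745), under scaling by library size (-0.08, 0.127) or after correction for GC content and length (-0.08, 0.163).

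Ireb2 (Entrez Gene 64602; chromosome 9, 54862658 to 54912534) encodes IRP2, which has no cluster and is controlled by breakdown of the protein when iron is plentiful. It had 119.8, 124 and 118 CPM in stretched replicates 1, 2 and 3, against 98.0, 103 and 98.6 CPM in static replicates 1, 2 and 3. Every stretched library was above every static library by a wide margin relative to the spread within groups. The mean was 121 ± 3.05 CPM in stretched and 99.9 ± 2.88 CPM in static cells (SD, n = 3 each). The log2 fold change was 0.28 (SE 0.038, 95% interval 0.19 to 0.36, adjusted p = 2.91e-05), and 16.4% of tested genes rose by as much or more. Ireb2 has the longest transcript of the members, 5.77 kb, and the GC and length offset moved its value to 0.14, still past the test (adjusted p = 0.00648). It did not pass against 1.2-fold (adjusted p = 0.6001).

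Fbxl5 (Entrez Gene 242960; chromosome 5, 43744618 to 43782149) encodes the iron-binding F-box protein that marks IRP2 for destruction when iron is plentiful. Its values were 40.5, 39.1 and 38.7 CPM in stretched cells, against 38.5, 34.8 and 34.9 CPM in static cells. The groups did not overlap, but static replicate 1 reached nearly the level of the lowest stretched library. The log2 fold change of 0.13 (SE 0.051, adjusted p = 0.0454) lay at the threshold. The call was lost without static replicate 2 (0.11, adjusted p = 0.0931) or 3 (0.10, 0.145), without stretched replicate 1 (0.11, 0.183), 2 (0.14, 0.0875) or 3 (0.14, 0.0665), with DESeq2 (0.13, 0.118), without a count filter (0.13, 0.0598), with the replicate number as a block (0.13, 0.0507) and with the GC and length offset (0.04, 0.525).

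The balance of the regulators was also compared within each library. Per kilobase, Ireb2 mRNA was 1.22, 1.34 and 1.22 times Aco1 mRNA in stretched replicates 1, 2 and 3, against 0.942, 0.921 and 0.966 times in static replicates 1, 2 and 3. Per kilobase Ireb2 was thus the more abundant of the regulators in all stretched libraries and the less abundant in all static libraries. This order depends on the lengths used, since without length scaling Ireb2 had a higher CPM than Aco1 in every library. The change in the ratio does not depend on them. The log2 difference of this ratio was 0.42 (exact two-sided permutation p = 0.1, the smallest possible), and its range with each library left out was 0.38 to 0.44. The offset for GC content and length brought the genes closer, with log2 fold changes of 0.14 for Ireb2 and -0.08 for Aco1. Receptor mRNA relative to ferritin heavy chain mRNA was 0.0387, 0.0389 and 0.0389 in stretched cells, against 0.0270, 0.0292 and 0.0282 in static cells. This ratio was 1.38-fold higher under stretch (log2 difference 0.47, exact two-sided permutation p = 0.1). Of its members Fth1 had the larger log2 fold change, at -0.58 against -0.11 for Tfrc. These were the 3 ratios computed, and with 3 against 3 samples no p of this permutation test can fall below 0.1 before or after adjustment.

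**Figure D3:**
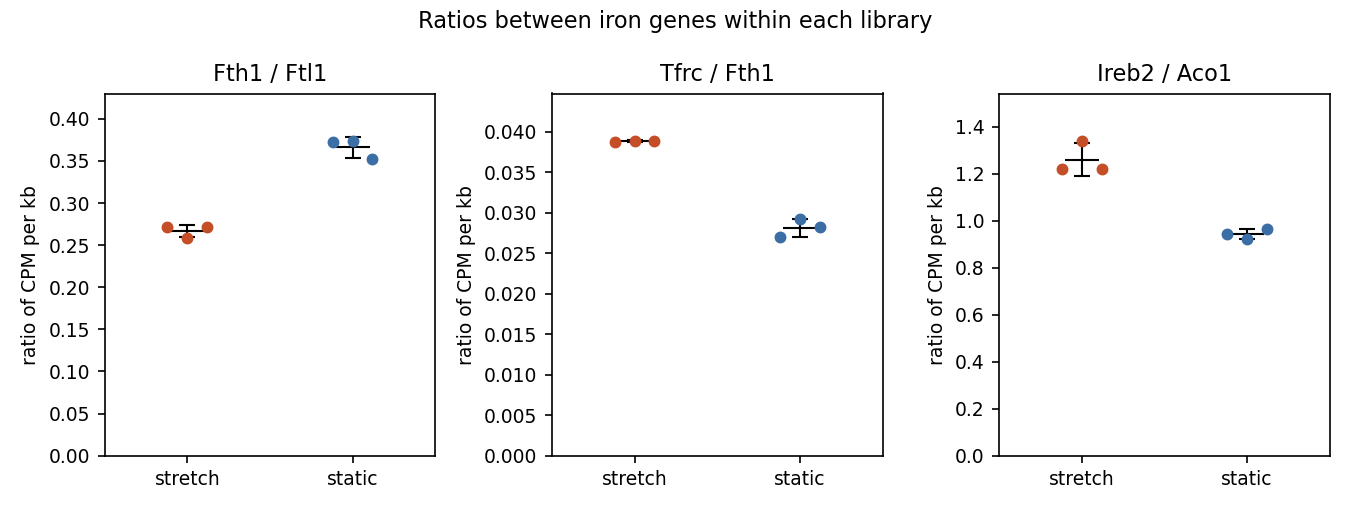
Ratios between iron genes within each library, from CPM per kilobase of transcript, in stretched (left) and static (right) cells; points are libraries, the bar is the mean and the whiskers 1 SD, and all axes start at 0. In each panel the 3 stretched libraries lie entirely to 1 side of the 3 static libraries.

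Ranked by level per kilobase, the storage genes stood far above the rest in both groups. Ftl1 came first with 8639 ± 17.9 CPM per kb in stretched and 9408 ± 177 CPM per kb in static cells, followed by Fth1 with 2309 ± 54.9 and 3445 ± 177 CPM per kb (SD, n = 3 each). Next came Tfrc with 89.7 ± 2.05 CPM per kb in stretched and 96.9 ± 6.20 CPM per kb in static cells, and then Slc11a2 with 24.99 ± 0.278 and 27.7 ± 1.59 CPM per kb. Below these the order changed between groups. In stretched cells it ran Ireb2, Slc40a1, Ncoa4, Steap3, Aco1 and Fbxl5, from 20.9 ± 0.529 to 9.30 ± 0.222 CPM per kb, and Slc40a1 overlapped with Ncoa4, Ncoa4 with Steap3 and Steap3 with Aco1. In static cells it ran Slc40a1, Steap3, Aco1, Ncoa4, Ireb2 and Fbxl5, from 27.3 ± 1.154 to 8.51 ± 0.497 CPM per kb. There Slc11a2 overlapped with Slc40a1, Steap3 with Aco1 and Ncoa4 with Ireb2. Per kilobase Slc40a1 was below Ireb2 in all stretched libraries and above it in all static libraries. This crossing depends on the lengths used, since without length scaling Slc40a1 had a lower CPM than Ireb2 in every library. These levels rest on a single transcript per gene and would shift with another choice of transcript.

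By the hairpins, the 3 mRNAs with a 5′ element had log2 fold changes of -0.58 (Fth1), -0.56 (Slc40a1) and -0.12 (Ftl1). The mRNA with 3′ elements, Tfrc, had -0.11. The 6 members without a match ranged from -0.17 (Steap3) to 0.28 (Ireb2). Of the other transcripts reported to carry an IRE, Epas1, the HIF-2 alpha gene, had 13.3 ± 1.12 CPM in stretched and 14.8 ± 1.31 CPM in static cells (SD, n = 3 each). Cdc42bpa, a kinase gene, had 73.8 ± 3.01 CPM in stretched and 72.7 ± 3.18 CPM in static cells. Neither passed edgeR's test, with log2 fold changes of -0.16 (adjusted p = 0.135) and 0.02 (adjusted p = 0.756). Epas1 passed without static replicate 1 (-0.23, adjusted p = 0.0473).

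Around these members, 93 of 103 other genes of iron, heme and iron-sulfur cluster handling were tested, and 32 of them fell and 9 rose (median log2 fold change -0.06). Of all tested genes 25.9% fell, 24.9% rose and 50.9% were called in all, and the counts of each list below stand against these shares. The 9 higher genes were 5 without stretched replicate 2, 14 with the offset for GC content and length and 23 with scaling by library size. Among other proteins of iron transport 7 of 8 tested genes fell and none rose (median -0.38). Cp, the gene of ceruloplasmin, a ferroxidase that oxidises exported iron so that transferrin can bind it, fell 2.46-fold to 18.95 ± 1.24 CPM in stretched cells, against 47.0 ± 2.04 CPM in static cells (adjusted p = 3.27e-10). Cp and Slc40a1, which act together in iron export, were thus both lower. Steap2, a metalloreductase gene, fell 1.5-fold and Mcoln1, the gene of a lysosomal cation channel that conducts ferrous iron, fell 1.43-fold. Among chaperones and turnover factors 2 of 12 fell and 1 rose (median 0.01), fewer calls than the 50.9% of all tested genes would give. Marchf8, a ubiquitin ligase gene whose product down-regulates transferrin receptor, fell 1.32-fold (log2 fold change -0.40), and Nedd4l, a ubiquitin ligase gene, fell 1.18-fold. Skp1, the gene of the adaptor that links F-box proteins such as Fbxl5 to their ligase, had a log2 fold change of 0.14 (adjusted p = 0.00285), which became 0.02 and was not called after correction for GC content and length. Of the transferrin receptor trafficking genes 9 of 18 fell and none rose (median -0.11), led by Ap2m1, a clathrin adaptor subunit gene, Dnm2, the dynamin that cuts vesicles free, and Ehd1, a recycling factor gene, with log2 fold changes of -0.29, -0.28 and -0.27. Correction for GC content and length moved Dnm2 to -0.18 and Ehd1 to -0.15, both still called.

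Heme is an iron-holding cofactor. For the lists that follow the shares over all tested genes are again 25.9% lower and 24.9% higher. Of the heme synthesis genes 3 of 8 fell and 1 rose (median -0.11). Alas1, the gene of the first enzyme, fell 1.49-fold to 48.3 ± 1.62 CPM in stretched cells, against 71.6 ± 1.54 CPM in static cells, and Fech, which inserts the iron, and Cpox had log2 fold changes of -0.28 and -0.22. Of the heme breakdown and transport genes 5 of 9 fell and 1 rose (median -0.41): Hmox1, the heme oxygenase that frees the iron, fell 2.20-fold, Slc48a1, a heme transporter gene, 1.56-fold, and Blvrb, a biliverdin reductase gene, 1.48-fold. Of the mitochondrial iron-sulfur cluster genes 3 of 18 rose and 3 fell (median 0.07), a smaller share called than the 50.9% of all tested genes. In the cytosol 3 of 11 rose, a share near the background, and none fell (median 0.05). Slc25a37, the mitochondrial iron importer mitoferrin-1, rose 1.27-fold, although its static libraries were spread widely (41.8 ± 0.910 CPM in stretched and 32.5 ± 6.27 CPM in static cells), Isca2 had a log2 fold change of 0.22 and Iba57 one of -0.34. The log2 fold change of Slc25a37 was 0.35 and became 0.52 without static replicate 3 and 0.25 without static replicate 2. Ndor1, Glrx3 and Mms19, of the cytosolic assembly route, had 0.26, 0.14 and 0.11. The call of Isca2 was lost without stretched replicate 2 (0.19, adjusted p = 0.0530), and that of Mms19 without stretched replicate 1 (0.11, 0.0784) or 2 (0.10, 0.104) or static replicate 1 (0.09, 0.129). DESeq2 did not call Slc25a37 (0.36, adjusted p = 0.0516) or Mms19 (0.11, 0.0579), and correction for GC content and length ended the call of Glrx3 (0.08, 0.0760). Of the transcription factors and partners that act on ferritin genes 3 of 6 fell: Mafg (-0.37), Mafk (-0.23) and Keap1 (-0.20), the inhibitor of NRF2, the last of which was not called after correction for GC content and length (-0.09, adjusted p = 0.0637). Nfe2l2, the NRF2 gene itself, chosen after its values were seen, had a log2 fold change of 0.02 (adjusted p = 0.689).

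**Figure D4:**
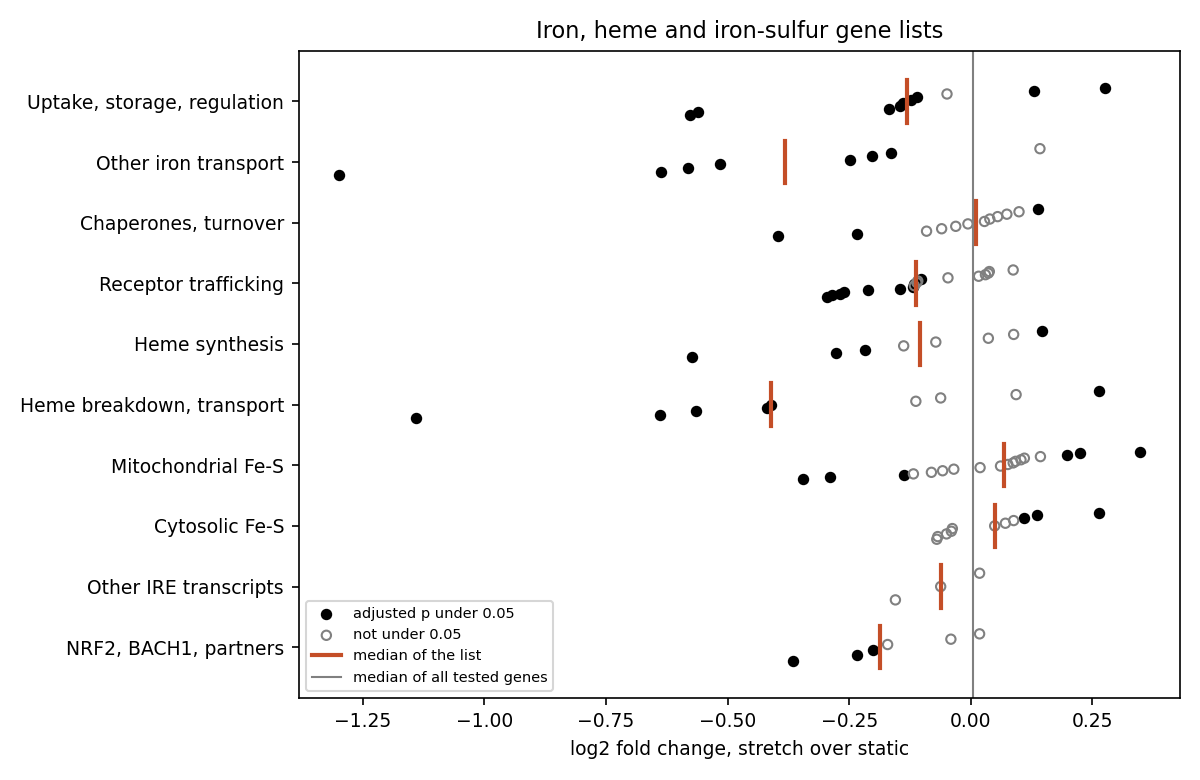
Log2 fold change, stretched over static cells, of each tested gene in the iron, heme and iron-sulfur lists, with the 10 genes of uptake, storage and regulation in the top row; filled points passed an adjusted p of 0.05 and orange bars are list medians. Iron transport (median -0.38) and heme breakdown and transport (median -0.41) lie furthest to the left of the median of all tested genes (0.00).

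The members differed in how firmly their change held. Fth1 and Slc40a1 kept their direction and their call in all 16 alternative fits, with log2 fold changes of -0.62 to -0.52 and -0.62 to -0.50. Ireb2 kept both in 15, all but the test against 1.2-fold, with values of 0.14 to 0.34. Steap3 and Ftl1 kept both in 14, Slc11a2 in 13 and Aco1 in 12. Tfrc kept them in 8 and Fbxl5 in 6. The calls of Tfrc, Slc11a2 and Aco1 were lost with scaling by library size alone.

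**Figure D5:**
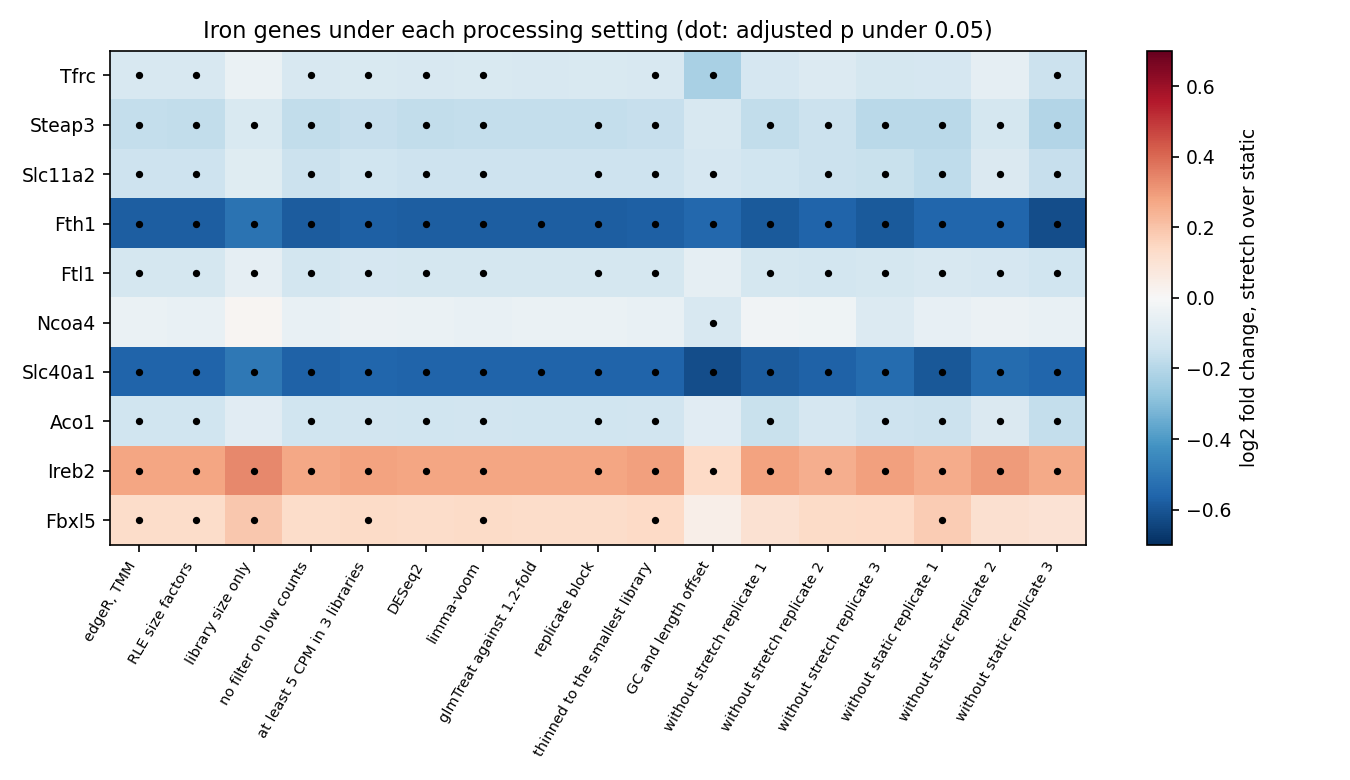
Log2 fold change of each iron gene (rows, colour) in the reported edgeR fit and the 16 alternative fits (columns); a dot marks an adjusted p under 0.05. Fth1 and Slc40a1 are blue with a dot in every column, and Tfrc and Fbxl5 lose the dot in 8 and 10 of the alternatives.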

How the data were processed

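RNA was measured in 3 stretched and 3 static samples, from Trizol and RNeasy extraction and BGI libraries per the labels' protocols. The authors deposited 1 table of estimated counts per gene, as whole unscaled numbers. Salmon 1.4.0 is named in the submitters' processing notes, as are mm10 and GRCm38; for its index, the summary per gene and strandedness, details were not given in the sources used here. Salmon divides reads among similar transcripts by estimation, which adds error for near-identical genes. Each of the 6 columns matched the description of 1 sample. Replicates differed by more than sampling noise. The chi-square per degree of freedom was 1.88 to 2.3 for pairs of stretched libraries and 3.35 to 7.67 for pairs of static libraries.

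Entrez numbers were given symbols from RefSeq GRCm38.p6 (14875 of 14883 matched). Genes passing edgeR's filterByExpr at a minimum count of 10 (12377) were scaled by TMM and tested on rounded counts, two-sided, by the quasi-likelihood test of edgeR 4.0.16 in R 4.3.3, with group as the sole term and 4 residual degrees of freedom. The biological coefficient of variation was 3.6%. No member's span overlapped that of another gene in the table. Lengths and hairpins came from 1 coding transcript per gene in GENCODE M21, the longest of those with the best support. The procedure was also run on simulated counts in which few genes changed, equally up and down. That setting differs from these data, where 50.9% of tested genes were called, so it does not test the scaling used here.

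Members and lists were chosen with earlier results of these data known. Named genes were the 10 members and the 3 of lowest p in each of 9 other lists; 1 of these is not reported here. Settings changed in turn were the scaling (RLE, or library size alone), the filter (none, or 5 CPM in 3 libraries), the tool (DESeq2 1.42.0, limma-voom of limma 3.58.1, glmTreat with a null of 1.2-fold), a block for replicate number, depth (thinned to 19469286 counts), an offset for GC content and length (splines with 5 degrees of freedom, values for 99.2% of tested genes) and each library left out.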

Additional observations from a re-analysis of the deposited data

How the results depend on the processing

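Of the 160 member values under 16 alternatives, 129 kept their side of the threshold, 30 lost the call and 1 gained it. No called value changed sign; Ncoa4, not called, did so with library size scaling. The 7 lower members became 4 with library size scaling, 5 with the GC and length offset and 2 against 1.2-fold, and were 5 to 7 with each library left out. The 2 higher members became 1 without a count filter, with DESeq2, with the replicate number as a block and with the GC and length offset, 0 against 1.2-fold (glmTreat), and 1 or 2 with each library left out. Of the other iron and heme genes, 9 rose and 32 fell: 23 rose with library size scaling, 14 with the GC and length offset and 0 against 1.2-fold, where 10 fell, and leaving out libraries gave 5 to 10 higher and 27 to 35 lower. The 28 other named genes gave 448 values, of which 421 kept their side of the threshold, 25 lost the call and 2 gained it. Against 1.2-fold 1592 of all tested genes were called, 679 higher and 913 lower. The labels do not say whether a replicate number marks a shared batch. Deviations of same-numbered libraries correlated at -0.112 to -0.016 and those of differently numbered libraries at -0.083 to 0.105. With 3 samples per group such values cannot decide whether the samples were paired. The block left 6 members lower and 1 higher, with 5967 genes called in all against 6298. The median of the 10 members was -0.16 to -0.10 with each library left out. The causes were not tested. The members had at least 654 counts in every library, and thinning to 19469286 counts left 7 called lower and 2 higher. Fbxl5, with the fewest counts, had the largest SE of the members (0.051). With 3 samples per group no exact test over samples can pass, so calls rest on spread shared across genes.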
